A study of Mus musculus with 6 samples.

Results

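The genes described here encode the ligands and receptors of the ephrin, semaphorin, netrin and SLIT systems. They were taken from the deposited count table by gene symbol, and 53 of its 23399 genes matched. Of these, 21 encode receptors (Eph receptors, plexins, neuropilins, ROBO1 and UNC5B), 30 encode ligands (ephrins, semaphorins, netrins and SLIT1), and 2, Unc50 and Unc5cl, matched by the letters of their names only and are no receptors of the UNC5 family. After the filter on low counts, 45 of the 53 were tested, among them 17 receptors and 27 ligands. Family members with no row in that table were not analysed here.

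Guidance cues were named for steering growing axons, and epithelia use them as well. Ephrins are tethered to the cell surface and bind Eph receptor tyrosine kinases on the neighbouring cell, and in the intestinal crypt EphB receptors and ephrin-B ligands lie in opposed gradients that keep cells in their place. Semaphorins signal through plexins, with neuropilins as co-receptors for most secreted class 3 members, netrins bind UNC5 receptors and DCC, and SLIT proteins bind ROBO receptors. Plexins, UNC5 receptors and ROBO receptors act largely on the actin cytoskeleton.

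Polyadenylated RNA was sequenced from CMT93 spheroids. CMT93 is a mouse colorectal carcinoma cell line, labelled as wild type and grown here over agar with a little Matrigel. In the palmitate group, 3 libraries came from cells given 200 µM sodium palmitate, dissolved in ethanol and bound to bovine serum albumin, for 1 week in monolayer and then 5 days as spheroids. In the vehicle group, 3 libraries came from cells given an equal amount of ethanol and albumin over the same times, so both groups carried ethanol, albumin and serum. All 6 libraries come from 1 cell line, and the labels do not say whether the numbered samples were separate cultures, so the p-values can speak only of the spread among these libraries, and that spread may be technical.

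The palmitate libraries held 22.5 to 22.9 M counts and the vehicle libraries 18.9 to 21.9 M, so each palmitate library was deeper than each vehicle library. Levels are given as CPM, the usual library-scaled count unit, after TMM normalisation. Of 14 listed colon epithelium markers 13 were in the table, and they summed to 7345 to 7454 CPM with palmitate and 8036 to 8101 CPM with vehicle. Most were abundant, among them Cdh1, Krt19 and Epcam (657 ± 12.5 CPM with palmitate and 673 ± 11.02 CPM with vehicle), while Cdx2 (2.46 ± 0.365 CPM with palmitate and 1.72 ± 0.276 CPM with vehicle) and Krt20 (0.237 ± 0.0274 CPM with palmitate and 0.146 ± 0.0879 CPM with vehicle) were the lowest. Of the 12 tested, 5 were lower, such as Krt18 (log2 fold change -0.42), Elf3 (-0.38) and Krt8 (-0.24), 4 were higher, such as Hnf4a (0.37), and 3 did not pass the threshold. Endothelial markers (7 of 9 in the table) summed to 4.13 to 5.06 CPM with palmitate and 4.85 to 5.46 CPM with vehicle, and fibroblast markers (5 of 9) to 0.976 to 1.14 CPM with palmitate and 1.339 to 2.05 CPM with vehicle. Leukocyte markers (5 of 9) summed to 9.72 to 10.9 CPM with palmitate and 7.42 to 9.16 CPM with vehicle, nearly all of it Cd68. Neuronal markers (5 of 10) summed to 69.3 to 76.3 CPM with palmitate and 107 to 116 CPM with vehicle. Snap25 was the most abundant of these (48.2 ± 0.789 CPM with palmitate and 91.1 ± 5.03 CPM with vehicle), Tubb3 was higher with palmitate, and Map2 had 0 counts in every palmitate library and 2 counts over the 3 vehicle libraries. Markers of other cell types were thus low, apart from these neuronal genes. The part of these markers in the results was not tested.

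The start regions of 2 members that rose with palmitate, Unc5b and Sema4f, and of 2 that fell, Plxnd1 and Ntn5, are shown. Their differences were called in every alternative analysis, and the windows hold no annotated exon. Efna2, which rose, met these conditions too and is not shown, so they alone did not fix the choice. Each window is the 250 bases before the transcription start in the RefSeq promoter table (GRCm38.p6), written 5′ to 3′ on the strand of the gene. The Unc5b window is chr10:60831582-60831831 on the minus strand, Sema4f chr6:82939770-82940019 on the minus strand, Plxnd1 chr6:115995006-115995255 on the minus strand and Ntn5 chr7:45683772-45684021 on the plus strand. Capitals mark a GC box, the letters GGGCGG on either strand, where CCGCCC is the other strand's reading.
Unc5b: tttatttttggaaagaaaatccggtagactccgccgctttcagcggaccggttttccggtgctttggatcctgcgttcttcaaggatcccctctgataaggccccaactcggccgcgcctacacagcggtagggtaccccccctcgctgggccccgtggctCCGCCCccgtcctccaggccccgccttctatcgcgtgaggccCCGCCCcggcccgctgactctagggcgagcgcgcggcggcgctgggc
Sema4f: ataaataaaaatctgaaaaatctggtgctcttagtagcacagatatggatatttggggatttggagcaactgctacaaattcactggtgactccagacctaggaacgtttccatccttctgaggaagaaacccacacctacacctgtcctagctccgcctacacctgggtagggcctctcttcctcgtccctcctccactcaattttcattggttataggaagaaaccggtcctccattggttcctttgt
Plxnd1: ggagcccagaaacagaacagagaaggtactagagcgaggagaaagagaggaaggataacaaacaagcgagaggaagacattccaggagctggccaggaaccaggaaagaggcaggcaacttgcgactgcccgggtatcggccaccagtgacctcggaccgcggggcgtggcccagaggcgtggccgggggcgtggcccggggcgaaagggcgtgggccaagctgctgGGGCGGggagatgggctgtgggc
Ntn5: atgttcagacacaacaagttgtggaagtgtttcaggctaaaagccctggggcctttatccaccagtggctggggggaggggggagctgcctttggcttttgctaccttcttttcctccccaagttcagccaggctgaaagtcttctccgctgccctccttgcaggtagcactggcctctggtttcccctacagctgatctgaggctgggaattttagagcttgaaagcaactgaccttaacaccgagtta

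The 4 windows differed in composition. G and C made up 66.8% of the Unc5b window and 64.8% of the Plxnd1 window, and these held 2 and 1 GC boxes. G and C made up 46.0% of the Sema4f window and 52.8% of the Ntn5 window, and no GC box was found in either. The Efna2 window, not shown, held 73.6% G and C and 2 GC boxes. The table holds windows for 41 of the 45 tested members, 53 windows in all, since some genes have several starts. A GC box was in 77.4% of those 53 windows and in 32.7% of all 32851 windows in the table, which also cover non-coding genes. The share with these letters was thus higher among members. All member windows belong to tested genes, while the full set was not limited to such genes. The share over tested genes alone was not taken, so the gap is not shown to be particular to members. The same limit holds for the letters below. The letters that follow were in few windows of either set. A TATA box, TATAAA on either strand, was in 1 member window (1.89%), that of Efnb2, and in 12.4% of all windows. The letters CTTTGAT or CTTTGAA, bound by TCF/LEF factors, were in 3 member windows, of Epha2, Nrp2 and Sema3e. That share, 5.66%, was near the 7.48% of all windows. The direct repeat bound by PPAR with RXR is 2 copies of AGGTCA with 1 base between them. On either strand, it was in 0 member windows and in 0.0335% of all windows, a share too small to compare over 53 windows. The E-box CACGTG was in 1 member window (1.89%), of Sema4b, and in 6.02% of all windows.

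With palmitate, spheroids carried more message for the netrin receptor gene Unc5b, the neuropilin gene Nrp2, the semaphorin gene Sema4f and the low-level ephrin gene Efna2. The plexin gene Plxnb2 was higher by a small amount. They carried less message for Ephb3, Plxnd1, Ntn5, the low-level plexin gene Plxnb3 and the semaphorin genes Sema3f, Sema4a, Sema4b and Sema4c. Of the 45 tested members, 29 (64.4%) passed the threshold, an adjusted p under 0.05 over 14987 genes in the two-sided quasi-likelihood test of edgeR, 11 higher and 18 lower with palmitate. In the whole table, 52.8% of tested genes were called, 27.4% higher and 25.4% lower. With DESeq2 both shares were smaller, 20 of 46 members with an adjusted p (43.5%) and 32.4% of all 17501 such genes. Members were on the whole more abundant than other genes, with a median of 39.8 CPM against 25.4 CPM over all tested genes. Among genes of at least 10 CPM, 22 of 33 members (66.7%) and 59.6% of all tested genes were called. The median log2 fold change was -0.06 over members and 0.00 over all tested genes, and its median size was 0.15 for both. In bulk RNA of this kind, fewer cells that carry a message and less message per cell cannot be told apart.

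Receptors and ligands both held genes that rose and genes that fell, and the difference between these classes was not tested. Of the 17 tested receptors, 12 (70.6%) were called, 4 higher and 8 lower, with a median log2 fold change of -0.04. Of the 27 tested ligands, 17 (63.0%) were called, 7 higher and 10 lower, with a median of -0.06. Most differences were small. Of the tested members, 6 (13.3%) were called and differed at least 1.5-fold, against 11.7% of all tested genes, and 1 (2.22%), Ntn5, at least 2-fold, against 4.51% of all. When a change had to exceed 1.2-fold (glmTreat), 12 members (26.7%) were called, 4 higher (Efna2, Nrp2, Sema4f and Unc5b) and 8 lower (Ephb3, Ntn5, Plxnb3, Plxnd1, Sema3f, Sema4a, Sema4b and Sema4c), against 15.2% of all tested genes. These 12 were also the members called in each of the 14 alternative analyses. All 3 palmitate libraries lay above all vehicle libraries for 11 members and below them for 20, while 14 overlapped. Over all tested genes these shares were 29.7% above and 28.1% below, or 57.8% without overlap.

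**Figure D1:**
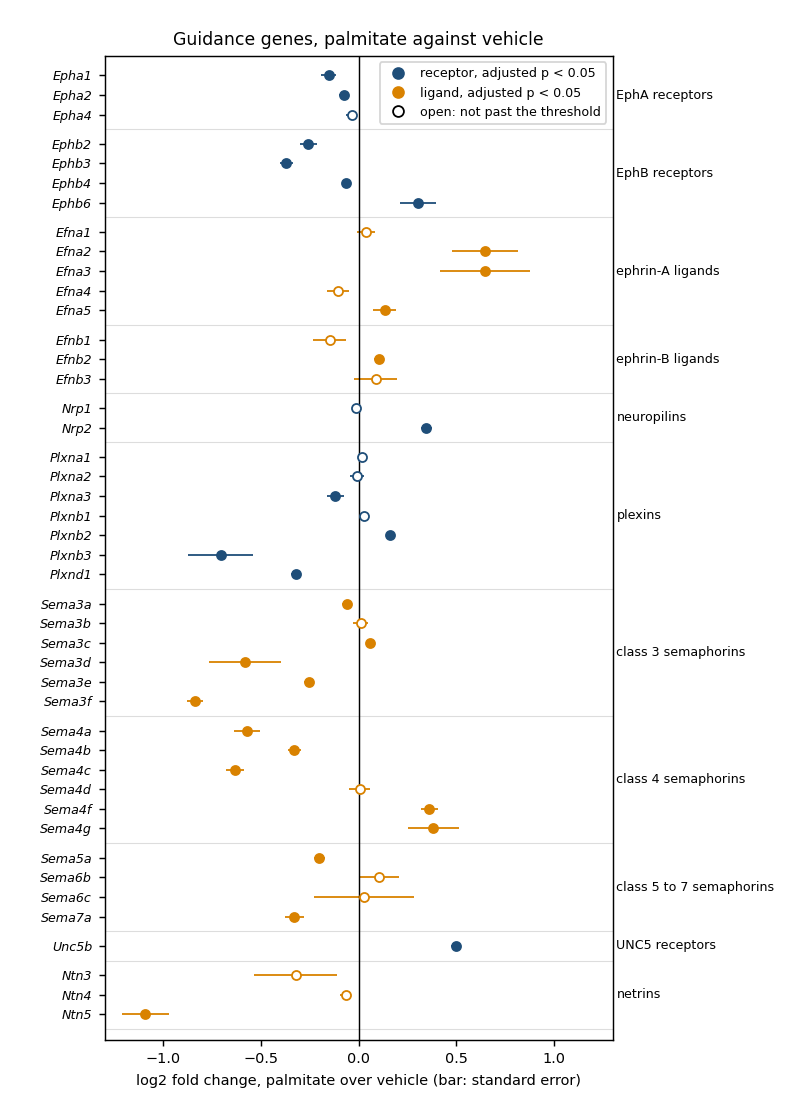
Log2 fold change of the 44 tested receptor and ligand genes, palmitate over vehicle, by family, with bars of 1 standard error. Filled points passed the threshold (blue receptors, orange ligands), and open points did not. Values run between -1.09 for Ntn5 and 0.65 for Efna2 and Efna3.

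**Figure D2:**
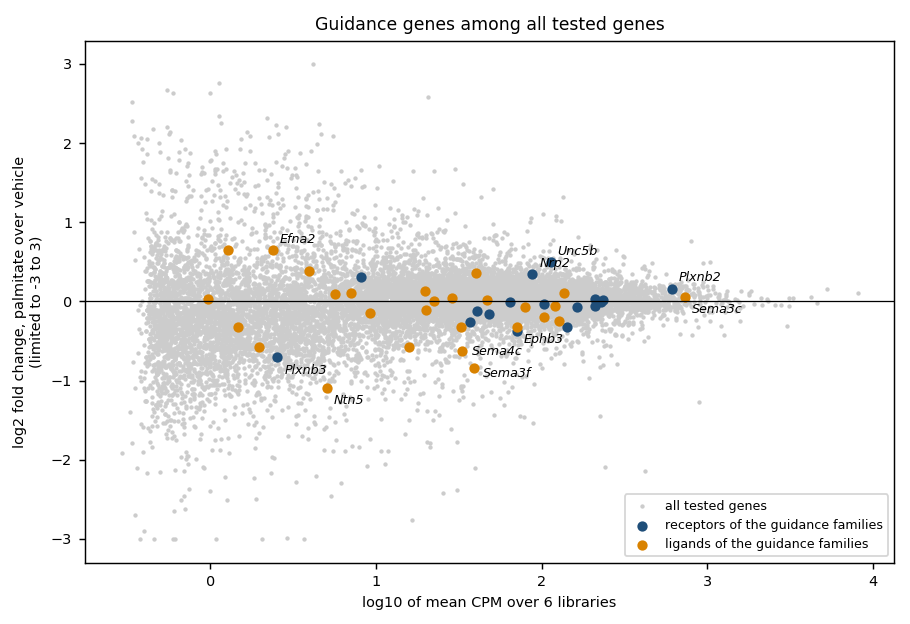
Log2 fold change (palmitate over vehicle, limited to the range shown) against log10 of mean CPM for all 14987 tested genes in grey, with guidance receptors in blue and ligands in orange. The members lie within the cloud of all genes, and the most abundant, Sema3c and Plxnb2, lie close to 0.

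Among Eph receptors, 5 of 7 tested genes were lower with palmitate, 1 was higher and 1 did not pass the threshold. The called share was 85.7%, against 52.8% of all tested genes. Ephb3 (ENSMUSG00000005958.16), a receptor of crypt base cells, had 61.5, 60.4 and 62.8 CPM in the palmitate libraries, against 77.2, 80.1 and 81.2 CPM in the vehicle libraries. All palmitate libraries lay below all vehicle libraries, and the gene fell (log2 fold change -0.37 with SE 0.0327 and edgeR adjusted p = 3.5e-17). Ephb2 (ENSMUSG00000028664.15), its close relative in the crypt, had 33.9, 34.7 and 32.5 CPM in the palmitate libraries, against 39.0, 42.2 and 39.6 CPM in the vehicle libraries (log2 fold change -0.26 with SE 0.0438 and edgeR adjusted p = 4.48e-07). The groups were again apart. Ephb4, which binds ephrin-B2 and is best known from veins, had 206, 199.9 and 206 CPM in the palmitate libraries, against 212, 214 and 212 CPM in the vehicle libraries (log2 fold change -0.06 with SE 0.0208 and edgeR adjusted p = 0.00839). That difference, although without overlap, was small, and its call was lost with DESeq2 and without palmitate replicate 2. Ephb6, an EphB receptor without kinase activity, averaged 9.01 ± 1.196 CPM with palmitate and 7.29 ± 0.127 CPM with vehicle and was the only Eph receptor called higher (log2 fold change 0.30, edgeR adjusted p = 0.00386), a call lost with DESeq2 and without palmitate replicate 3.

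Of the EphA receptors, 2 of 3 tested were called lower, by small amounts (66.7% called, against 52.8% of all tested genes). Epha2 (ENSMUSG00000006445.4), the most abundant of them per transcript length and a receptor of many carcinomas, had 157, 163 and 158 CPM in the palmitate libraries, against 171, 165 and 169 CPM in the vehicle libraries (log2 fold change -0.08 with SE 0.0228 and edgeR adjusted p = 0.00325). Its groups did not overlap, but the call was lost with DESeq2. Epha1 averaged 45.3 ± 0.764 CPM with palmitate and 50.4 ± 2.10 CPM with vehicle (log2 fold change -0.15, edgeR adjusted p = 0.000529). In the GENCODE M21 annotation 6.01% of the exon bases of Epha1 lie opposite exons of Zyx, which was also lower with palmitate. Epha4 was not called (log2 fold change -0.04, edgeR adjusted p = 0.273). Summed over the family, EphA receptors had 70.8 ± 0.706 with palmitate and 75.0 ± 1.27 with vehicle, and EphB receptors 65.4 ± 1.24 with palmitate and 71.4 ± 0.691 with vehicle, in CPM per kilobase of the longest transcript. Ephb4 made up the largest part of the EphB sum, at 71.8% with palmitate and 68.7% with vehicle, and Ephb3 made up 19.8% with palmitate and 23.4% with vehicle.

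Of the 8 ephrin genes, 4 were higher with palmitate, none was called lower and 4 did not pass the threshold. The called share was 50.0%, near the 52.8% of all tested genes (27.4% higher and 25.4% lower). Efnb2 (ENSMUSG00000001300.17), the transmembrane ligand of EphB receptors with the highest level per length among ephrins, had 139, 143 and 140.0 CPM in the palmitate libraries, against 133, 130.1 and 130.2 CPM in the vehicle libraries (log2 fold change 0.10 with SE 0.0241 and edgeR adjusted p = 0.000136). The groups were apart, and the rise was small. Efnb1, another ligand of EphB2 and EphB3, had 8.64, 9.01 and 8.32 CPM in the palmitate libraries, against 10.4, 10.0 and 8.49 CPM in the vehicle libraries (log2 fold change -0.15 with SE 0.0860 and edgeR adjusted p = 0.141). Its groups overlapped, and it was called lower only without vehicle replicate 3. Efnb3 had a log2 fold change of 0.09 and was not called. The ephrin-B sum per length was 33.9 ± 0.669 with palmitate and 32.0 ± 0.402 with vehicle, of which Efnb2 made up 86.8% with palmitate and 85.4% with vehicle.

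Ephrin-A ligands, held to the membrane by a lipid anchor, had their greatest relative differences in genes of low level. Efna2 (ENSMUSG00000003070.7) had 2.64, 3.24 and 2.82 CPM in the palmitate libraries, against 1.95, 1.77 and 1.85 CPM in the vehicle libraries (log2 fold change 0.65 with SE 0.169 and edgeR adjusted p = 0.000787). Each palmitate library exceeded each vehicle library. Efna3 had 1.79, 1.46 and 1.41 CPM in the palmitate libraries, against 0.790, 0.910 and 1.25 CPM in the vehicle libraries (log2 fold change 0.65 with SE 0.229 and edgeR adjusted p = 0.0133). Those groups did not overlap either, but the call was lost with DESeq2 and without palmitate replicate 1, vehicle replicate 1 or vehicle replicate 2. Of the exon bases of Efna3, 14.1% lie opposite Gm15998. That gene had 0.0298 ± 0.0517 CPM with palmitate and 0.144 ± 0.0464 CPM with vehicle and was not tested. The more abundant Efna1, a ligand of EphA2, had 29.4, 28.6 and 29.4 CPM in the palmitate libraries, against 28.4, 28.6 and 28.1 CPM in the vehicle libraries (log2 fold change 0.04 with SE 0.0480 and edgeR adjusted p = 0.528), with overlapping groups. The call of Efna5 (log2 fold change 0.13) was lost in 9 of 14 alternatives, both other scalings among them, and Efna4 had -0.11 and was not called.

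Semaphorins parted by gene. Of 16 tested, 12 (75.0%, against 52.8% of all tested genes) were called, 3 higher and 9 lower. Among the secreted class 3 members, Sema3c (ENSMUSG00000028780.14), which signals through neuropilins and plexin-D1, had the highest level of all members per length of the longest transcript. It had 751, 746 and 748 CPM in the palmitate libraries, against 714, 714 and 728 CPM in the vehicle libraries (log2 fold change 0.06 with SE 0.0157 and edgeR adjusted p = 0.00102). The groups were apart by a small margin. Sema3f (ENSMUSG00000034684.13), a repellent cue that binds neuropilin-2, had 28.1, 27.7 and 27.6 CPM in the palmitate libraries, against 49.6, 49.0 and 50.4 CPM in the vehicle libraries. It fell in each palmitate library relative to each vehicle library (log2 fold change -0.84 with SE 0.0427 and edgeR adjusted p = 5.65e-31). Sema3e, the ligand of plexin-D1 that needs no neuropilin, averaged 115 ± 2.84 CPM with palmitate and 137 ± 1.37 CPM with vehicle (log2 fold change -0.25, edgeR adjusted p = 7.27e-15). Sema3d had 1.61, 1.77 and 1.32 CPM in the palmitate libraries, against 2.42, 2.37 and 2.26 CPM in the vehicle libraries (log2 fold change -0.58 with SE 0.184 and edgeR adjusted p = 0.00569), without overlap but with a call lost in DESeq2. The call of Sema3a, a ligand of neuropilin-1 (log2 fold change -0.06), was lost in 10 of 14 alternatives, and Sema3b had 0.01 and was not called.

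Class 4 semaphorins span the membrane and bind mostly B plexins. Sema4c (ENSMUSG00000026121.14), a ligand of plexin-B2, had 25.2, 26.5 and 26.5 CPM in the palmitate libraries, against 38.0, 40.0 and 43.0 CPM in the vehicle libraries (log2 fold change -0.63 with SE 0.0471 and edgeR adjusted p = 5.32e-21). All palmitate libraries were lower. Sema4a (ENSMUSG00000028064.18), which binds B plexins and plexin-D1, had 12.7, 11.2 and 14.3 CPM in the palmitate libraries, against 18.5, 18.3 and 20.03 CPM in the vehicle libraries (log2 fold change -0.57 with SE 0.0678 and edgeR adjusted p = 1.11e-11). Sema4b had 61.6, 64.8 and 62.8 CPM in the palmitate libraries, against 81.1, 79.0 and 77.9 CPM in the vehicle libraries (log2 fold change -0.33 with SE 0.0326 and edgeR adjusted p = 5.76e-15). Neither gene had overlapping groups. The direction was the other one for Sema4f, which had 45.3, 44.9 and 44.3 CPM in the palmitate libraries, against 34.5, 34.3 and 35.8 CPM in the vehicle libraries (log2 fold change 0.36 with SE 0.0417 and edgeR adjusted p = 3.02e-12), again with no overlap. Sema4g also had a higher average with palmitate, 4.45 ± 0.183 CPM with palmitate and 3.44 ± 0.399 CPM with vehicle (log2 fold change 0.38, edgeR adjusted p = 0.0108), and its call was lost with DESeq2 and without vehicle replicate 2 or 3. Sema4d, the ligand of plexin-B1, had 22.1, 23.2 and 21.7 CPM in the palmitate libraries, against 22.4, 23.2 and 21.1 CPM in the vehicle libraries (log2 fold change 0.01 with SE 0.0548 and edgeR adjusted p = 0.945), with overlapping groups. In the annotation 7.27% of the exon bases of Sema4c lie opposite D430040D24Rik, a gene of about 1 CPM that was also lower with palmitate.

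In classes 5 to 7, Sema7a (ENSMUSG00000038264.9), which is lipid-anchored and binds plexin-C1 and integrins, had 30.4, 29.2 and 26.7 CPM in the palmitate libraries, against 34.2, 35.3 and 38.7 CPM in the vehicle libraries (log2 fold change -0.33 with SE 0.0485 and edgeR adjusted p = 1.2e-08). The groups were apart. Sema5a, a transmembrane member with thrombospondin repeats, averaged 95.4 ± 0.343 CPM with palmitate and 109.7 ± 3.24 CPM with vehicle (log2 fold change -0.20, edgeR adjusted p = 1.28e-09). Sema6b and Sema6c, with log2 fold changes of 0.11 and 0.03, were not called. Summed per length, class 3 semaphorins came, in CPM per kilobase, to 195 ± 0.896 with palmitate and 200.3 ± 1.63 with vehicle, class 4 to 43.6 ± 0.469 with palmitate and 50.6 ± 0.501 with vehicle, and classes 5 to 7 to 19.7 ± 0.721 with palmitate and 23.1 ± 0.701 with vehicle. All 3 sums were lower with palmitate, without overlap. Of the class 3 sum, Sema3c made up 69.8% with palmitate and 65.3% with vehicle, and Sema3f 4.19% with palmitate and 7.30% with vehicle. Of the class 4 sum, Sema4f made up 25.2% with palmitate and 16.9% with vehicle, and Sema4c 15.4% with palmitate and 20.5% with vehicle.

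**Figure D3:**
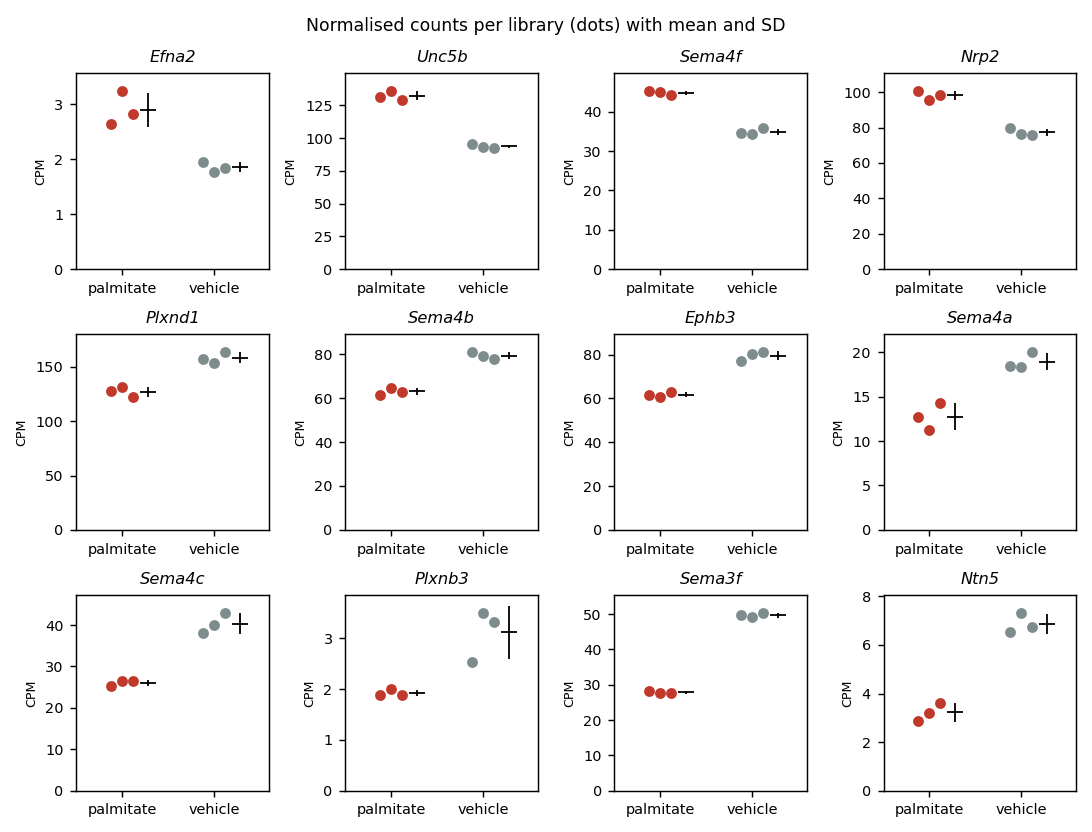
CPM in each library for the 12 members called against a minimum change of 1.2-fold, palmitate (red) left of vehicle (grey), with the mean and SD of 3 libraries beside the points. Each axis starts at 0. In all 12 panels the groups are apart, 4 with palmitate higher and 8 with palmitate lower.

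The semaphorin receptors likewise moved in both directions, with 2 of 9 tested higher, 3 lower and 4 not past the threshold. The called share, 55.6%, was near the 52.8% of all tested genes. Plxnb2 (ENSMUSG00000036606.18), a receptor of class 4 semaphorins, had 648, 647 and 637 CPM in the palmitate libraries, against 584, 573 and 571 CPM in the vehicle libraries. It was the most abundant plexin per length, and each palmitate library lay above each vehicle library (log2 fold change 0.16 with SE 0.0162 and edgeR adjusted p = 1.13e-14). The rise was small, and the call was lost against a minimum change of 1.2-fold. Plxnd1 (ENSMUSG00000030123.16), the receptor of semaphorin 3E, had 128, 131 and 122 CPM in the palmitate libraries, against 158, 154 and 164 CPM in the vehicle libraries. It fell, with the groups apart (log2 fold change -0.32 with SE 0.0251 and edgeR adjusted p = 1.66e-19). Plxnb3, a receptor of semaphorin 5A, had 1.88, 2.00 and 1.89 CPM in the palmitate libraries, against 2.53, 3.50 and 3.32 CPM in the vehicle libraries (log2 fold change -0.71 with SE 0.166 and edgeR adjusted p = 0.000177). Its level was low and its groups did not overlap.

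The other plexins differed less. Plxna1, which pairs with neuropilins, had 231, 238 and 236 CPM in the palmitate libraries, against 233, 231 and 235 CPM in the vehicle libraries (log2 fold change 0.01 with SE 0.0201 and edgeR adjusted p = 0.565), and the groups overlapped. Plxnb1 had 212, 213 and 206 CPM in the palmitate libraries, against 206, 207 and 206 CPM in the vehicle libraries (log2 fold change 0.03 with SE 0.0208 and edgeR adjusted p = 0.266) and was not called. Plxna3 was called lower (log2 fold change -0.12, edgeR adjusted p = 0.0129), but not with DESeq2 or without palmitate replicate 1 or vehicle replicate 1, and Plxna2 had -0.01 and was not called. The summed plexin level, in CPM per kilobase, was 179.7 ± 1.80 with palmitate and 174 ± 1.21 with vehicle, a gap without overlap with the longest transcript as length and not with the median transcript. Of the sum, Plxnb2 made up 55.2% with palmitate and 51.0% with vehicle, and Plxnd1 10.2% with palmitate and 13.2% with vehicle.

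The neuropilins parted. Nrp2 (ENSMUSG00000025969.16), the co-receptor preferred by semaphorin 3F, had 101, 95.5 and 98.5 CPM in the palmitate libraries, against 79.6, 76.4 and 75.8 CPM in the vehicle libraries. All palmitate libraries were above all vehicle libraries, and the gene rose (log2 fold change 0.35 with SE 0.0300 and edgeR adjusted p = 1.13e-17). Nrp1 (ENSMUSG00000025810.10), the co-receptor of semaphorin 3A and of VEGF, had 232, 227 and 224 CPM in the palmitate libraries, against 228, 232 and 229.6 CPM in the vehicle libraries (log2 fold change -0.01 with SE 0.0202 and edgeR adjusted p = 0.623). Its groups overlapped, and it was not called. Of the summed neuropilin level per length, Nrp1 made up 81.1% with palmitate and 84.6% with vehicle, and Nrp2 18.9% with palmitate and 15.4% with vehicle.

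In the netrin system the receptor gene Unc5b rose and the ligand gene Ntn5, of low level, fell. Unc5b (ENSMUSG00000020099.9), a netrin receptor with a death domain, had 131, 136 and 129 CPM in the palmitate libraries, against 95.2, 93.3 and 92.3 CPM in the vehicle libraries. Every palmitate library exceeded every vehicle library (log2 fold change 0.50 with SE 0.0268 and edgeR adjusted p = 1.48e-29). It was the only tested UNC5 family receptor, and Dcc had no row among the counts. Neo1, from the list of co-receptors and partners below, was lower by a small amount. It had 211 ± 1.79 CPM with palmitate and 221 ± 4.03 CPM with vehicle (log2 fold change -0.07, edgeR adjusted p = 0.00507). Ntn4 (ENSMUSG00000020019.5), a basement membrane netrin and the most abundant netrin per length, had 78.0, 77.5 and 77.1 CPM in the palmitate libraries, against 81.9, 81.3 and 80.6 CPM in the vehicle libraries (log2 fold change -0.07 with SE 0.0305 and edgeR adjusted p = 0.0564). All palmitate libraries were lower, but it was not called, although it passed the threshold under both other scalings. Ntn5 (ENSMUSG00000070564.16), a little-studied netrin, had 2.86, 3.19 and 3.61 CPM in the palmitate libraries, against 6.53, 7.32 and 6.74 CPM in the vehicle libraries (log2 fold change -1.09 with SE 0.119 and edgeR adjusted p = 3.68e-13), with the groups well apart. Ntn3 had a log2 fold change of -0.32 and was not called. Of the exon bases of Ntn5, 23.4% lie opposite exons of Sec1, which was lower with palmitate as well (log2 fold change -0.81, edgeR adjusted p = 2.13e-06), and since it is not stated whether counting used strand, reads of the pair may not be separate. Of the summed netrin level per length, Ntn4 made up 91.0% with palmitate and 84.0% with vehicle, and Ntn5 7.84% with palmitate and 14.7% with vehicle.

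The SLIT and ROBO pair was close to absent from the counts. Robo1 had 3 counts over all palmitate libraries and 0 over all vehicle libraries, and Slit1 had 10 with palmitate and 7 with vehicle. The netrin gene Ntn1 had 6 counts with palmitate and 11 with vehicle. The other members under the filter, Epha8, Epha10, Plxnc1, Sema3g and Unc5cl, had between 0 and 17 summed counts with palmitate and between 1 and 9 with vehicle. They were not tested, and no difference in them was detectable at this depth. Unc50, a Golgi membrane protein gene caught by the symbol search, had a log2 fold change of -0.11 and was not called, although it passed under both other scalings.

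Levels per transcript length spanned a wide range, and the same genes led in both groups. Sema3c stood first with 136 CPM per kilobase with palmitate and 131 with vehicle. Plxnb2 followed with 99.2 with palmitate and 88.7 with vehicle, then Nrp1 with 62.5 with palmitate and 63.0 with vehicle, and Ephb4 with 47.0 with palmitate and 49.1 with vehicle. Sema6c was the lowest of the tested receptors and ligands, with 0.192 with palmitate and 0.187 with vehicle. The order rests on the length used, since with the median transcript of each gene Plxnb2 stood above Sema3c. With that length Plxna1 (330 with vehicle), Plxnd1 (293), Plxnb1 (282) and Epha2 (224) also stood above Nrp1 (71.1) and Ephb4 (54.7). The family shares given are for the longest transcript and depend on length as well. With the median transcript, Ephb4 made up 49.7% of the EphB sum with palmitate and 47.2% with vehicle.

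**Figure D4:**
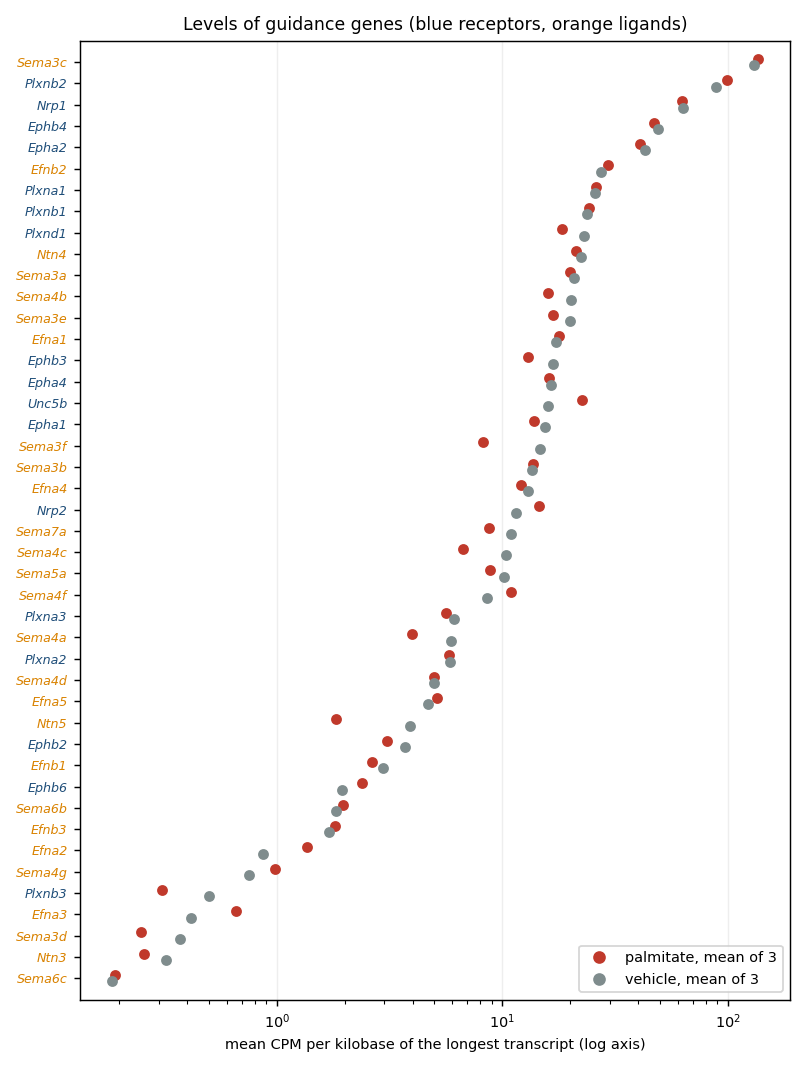
Mean CPM per kilobase of the longest transcript (log axis) for the 44 tested receptors (blue names) and ligands (orange names), with palmitate in red drawn just above vehicle in grey, sorted by the vehicle level. Sema3c and Plxnb2 lead, and the pairs set widest apart belong to Ntn5, Sema3f and a few genes under 1 CPM per kilobase.

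Ratios of counts within a library do not depend on its depth, and several partners parted by this measure. These pairs were picked after the values were seen, so they describe the libraries and carry no test. Nrp2 counts over Nrp1 counts were 0.434, 0.420 and 0.439 in the palmitate libraries, against 0.350, 0.329 and 0.330 in the vehicle libraries. Sema3f over Sema3c was 0.0375, 0.0371 and 0.0368 in the palmitate libraries, against 0.0695, 0.0687 and 0.0692 in the vehicle libraries, so the weight of class 3 message lay further towards Sema3c with palmitate. Between receptor and ligand, Ephb3 over Efnb2 was 0.442, 0.422 and 0.448 in the palmitate libraries, against 0.582, 0.616 and 0.624 in the vehicle libraries. Unc5b over Ntn4 was 1.69, 1.75 and 1.68 in the palmitate libraries, against 1.16, 1.15 and 1.14 in the vehicle libraries. In each of the 4 ratios the groups did not overlap.

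**Figure D5:**
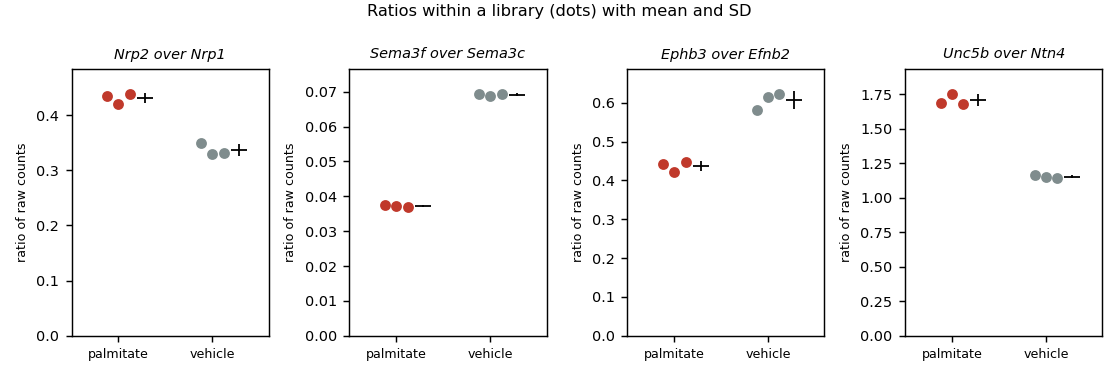
Ratio of raw counts of 2 genes within each library, palmitate (red) left of vehicle (grey), with the mean and SD of 3 libraries. Nrp2 over Nrp1 and Unc5b over Ntn4 are higher with palmitate, and Sema3f over Sema3c and Ephb3 over Efnb2 are lower.

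Other genes of these systems came from 3 lists. Of co-receptors and related partners, 16 of 28 listed were tested, and 12 (75.0%, against 52.8% of all tested genes) were called, 6 higher and 6 lower. L1cam, an adhesion partner of neuropilin-1, had the greatest relative change of these, with 6.37 ± 0.422 CPM with palmitate and 1.70 ± 0.0709 CPM with vehicle (log2 fold change 1.90, edgeR adjusted p = 6.41e-21). Met, a receptor kinase that associates with B plexins, fell (247 ± 1.14 CPM with palmitate and 300.2 ± 1.44 CPM with vehicle, SD, n = 3 libraries each), while Sdc1 (0.20), Ptk7 (0.29) and Flrt3 (0.15), a partner of UNC5B, rose and the glypican gene Gpc1 (-0.12) fell, given as log2 fold changes. Of intracellular effectors, 71 of 75 listed were tested, and 44 (62.0%, against the same 52.8% and 59.6% of genes of at least 10 CPM) were called, 24 higher and 20 lower. Rock2, a kinase that acts on the actin cytoskeleton, rose (481 ± 6.26 CPM with palmitate and 361 ± 3.06 CPM with vehicle, log2 fold change 0.41, edgeR adjusted p = 1.77e-36), as did Tiam1 (0.52) and Itsn2 (0.39), guanine nucleotide exchange factors, and Srgap3 (0.64), a GTPase-activating protein of the SLIT-ROBO pathway. Mical1, an oxidoreductase that acts on actin downstream of semaphorins and plexins, fell (32.4 ± 0.891 CPM with palmitate and 49.1 ± 2.74 CPM with vehicle, log2 fold change -0.60, edgeR adjusted p = 3.9e-22), and Maged1, which binds an UNC5 receptor, fell as well (-0.22).

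EphB receptor genes are known WNT targets in the crypt, so a list of other WNT targets was set beside them. Of 18 listed, 12 were tested. Ascl2, Sp5 and Prox1 had no row, and Sox9, Olfm4 and Smoc2 had 6, 30 and 2 counts over all 6 libraries. All 12 tested were called, 8 higher and 4 lower, with a median log2 fold change of 0.19. Over all tested genes 52.8% were called, 27.4% higher and 25.4% lower. Among those of at least 10 CPM the called share was 59.6%. Notum (0.86), a secreted WNT antagonist, and the transcription factor gene Tcf7 (0.67) rose, in log2 fold changes, with Axin2 and Cd44 in the same direction. Tnfrsf19 (-0.89), a receptor of crypt stem cells, fell, as did Apcdd1, a WNT inhibitor gene. Among the other tested targets, Lgr5 (0.19), Rnf43 (0.15), Znrf3 (0.20) and Nkd1 (0.41) rose, while Myc (-0.09) fell. These genes were named after their values were seen. The list thus held both directions, with more genes higher than lower, and a loss of crypt stem cell message was not tested. Lef1, a low-level transcription factor gene named after its values were seen, had the greatest fold change of the list, with 0.326 ± 0.0699 CPM with palmitate and 1.32 ± 0.210 CPM with vehicle (log2 fold change -1.99, edgeR adjusted p = 3.24e-08). Ephb2 and Ephb3 themselves were lower.

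The authors' deposited table of their own comparison calls 20 of the 53 members at a q-value under 0.05, 7 higher and 13 lower, against 24.2% of all genes in that table. All 20 were also called by edgeR here. The deposited table and the DESeq2 alternative both call 5663 genes and 20 members of the same counts, so that table is no separate check. The 9 members called by edgeR only, all lost with the DESeq2 alternative, were Efna3, Efna5, Epha2, Ephb4, Ephb6, Plxna3, Sema3a, Sema3d and Sema4g.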

How the data were processed

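Gene counts from 6 libraries of CMT93 spheroids were analysed, 3 with palmitate and 3 with vehicle, grouped by the sample labels. The submitters' processing notes name FastQC 0.11.8, STAR 2.6.1, DESeq2 1.34.0 and, with no version, HTSeq, and the mouse build mm39. The count table holds raw counts as deposited, from a stranded poly(A) library kit per the labels' protocols, and use of strand in counting is not stated there. A table of the authors' own comparison, also deposited, gives log2 fold changes, p-values and q-values.

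Tests used edgeR 4.0.16 (glmQLFit, robust, and glmQLFTest, two-sided) in R 4.3.3 on the counts after TMM normalisation and filterByExpr (minimum count 10), with Benjamini-Hochberg adjustment over 14987 genes, with a threshold of 0.05. Standard errors are the size of the log2 fold change over the root of the quasi-likelihood F. Values with ± are mean and SD of 3 libraries. The fit was first tested on simulated data in which 200 of 14987 genes were changed. It recovered 54% of 1.2-fold, 78% of 1.5-fold and 94% of 2-fold changes, with 9 false calls. Far more genes were called in the real data, and change on that scale was not simulated. Libraries of a group differed by up to 1.38 times counting noise (chi-square over degrees of freedom), and none was taken for a copy.

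Lengths and exon overlaps came from GENCODE M21 by Ensembl identifier (all 45 tested members matched), and start regions from RefSeq tables, both of an earlier build, so no mm39 positions are given. Named genes were called members with a log2 fold change of at least 0.5 in size and a mean of at least 0.5 CPM in either group (8), a panel (17 of 21 listed were tested), and up to 6 called genes a list by smallest p. Plxnd1, Sema4b and Sema4f, given per library because glmTreat called them, and Epha1, Ephb6, Sema3e, Sema4g and Sema5a, given with means, fall outside that rule and were chosen after their values were seen. The other members are given by fold change. The members and lists were chosen with earlier results of these data known. Alternatives were median-of-ratios factors, library totals, no count filter, DESeq2 1.42.0, limma-voom (limma 3.58.1), glmTreat, a replicate block, thinning to the shallowest library, leaving out each library and, for levels, the median transcript length. An exact permutation test of 3 against 3 libraries cannot go below p = 0.1 and was not used. Plots were made in Python 3.11.15 (matplotlib 3.10.9).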

Additional observations from a re-analysis of the deposited data

How the results depend on the processing

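Direction and significance of the 12 members called against a minimum change held in all 14 alternatives, and no called member turned its sign. Against a minimum of 1.2-fold, glmTreat called 2275 genes (968 higher, 1307 lower), 12 guidance genes (4 higher, 8 lower), 5 receptors (2 higher, 3 lower) and 7 ligands (2 higher, 5 lower), as its stricter hypothesis entails. DESeq2 called 5663 of 17501 genes (32.4%, against 52.8% with edgeR), 20 guidance genes (7 higher, 13 lower), 8 receptors (3 higher, 5 lower) and 12 ligands (4 higher, 8 lower), and the cause was not tested. Leaving out 1 library gave 7260 to 7406 calls over all genes, 26 to 28 guidance genes, 11 to 12 receptors and 14 to 15 ligands. Same-numbered libraries did not deviate together (r = -0.004, 0.008 and 0.007). Libraries of a group differed by little more than counting noise, so these values cannot show whether the numbers pair them. With the replicate block, 7933 genes, 29 guidance genes, 12 receptors and 16 ligands were called, as Sema3a was lost. Unc50 was called with the block. Genes near no change turned sign without a call: Plxna1 (-0.002352) and Sema3b (-0.00607) with library totals, Plxna2 with no count filter (0.0006801) and thinned (0.01286), and Sema4d with library totals (-0.01167) and thinned (-0.005758). Leaving out 1 library, log2 fold changes ranged -0.02278 to 0.0006362 for Nrp1, -0.03591 to 0.01759 for Plxna2, -0.008796 to 0.04436 for Sema3b, -0.0349 to 0.0389 for Sema4d and -0.1063 to 0.1112 for Sema6c. With the median transcript length, 40 of 44 levels moved by more than the SD between libraries. No other scaling moved the median of all genes by more than 0.017. Genes near 1 CPM rest on few counts, which limits Efna3, Sema3d, Ntn3 and Sema6c most.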
